A study of Mus musculus with 8 samples.

Results

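The RNAs described here are 8 abundant noncoding transcripts that were chosen by their level in mouse knee cartilage. ENSMUSG00000119584 was taken because it is the most abundant of 50462 gene identifiers in the count table, and the others were listed with it as ribosomal and nuclear noncoding RNAs (mt-Rnr1, mt-Rnr2, Rn7sk, Rmrp, Rpph1, Malat1 and Neat1). Of the 8, 7 matched a row of the table. No row matched Rn7sk, which is not analysed here. The abundance of these RNAs is therefore a description and not a finding.

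The study asked how medial knee cartilage responds to joint destabilisation. RNA-seq libraries were made from medial cartilage caps of individual wild-type male C57Bl/6J mice, with 4 libraries in each of 2 groups. Naive mice had no surgery and were taken at day 0, at 11 weeks of age. DMM mice were operated on at 11 weeks, when the left medial meniscus was destabilised by transecting the ligament that ties it to the tibia, and were taken at day 42, at 17 weeks of age. The methods describe no sham-operated group for this model, so surgery and the added age cannot be told apart.

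Ribosomal RNA (rRNA) forms the core of the ribosome. The cytosolic rRNAs are transcribed by RNA polymerase I in the nucleolus and are trimmed there with the help of small nucleolar RNAs (snoRNAs), whereas the rRNAs of mitochondria are encoded on the mitochondrial genome and are cut out of a long precursor that also holds mRNAs and tRNAs. Rpph1 and Rmrp, both made by RNA polymerase III, are the RNA subunits of RNase P, which trims the leader of tRNA precursors, and RNase MRP, which acts in the processing of rRNA precursors. Loss-of-function variants of the human RMRP gene cause cartilage-hair hypoplasia, a short-stature disorder. Malat1 and Neat1 are long noncoding RNAs that stay in the nucleus. Malat1 gathers in nuclear speckles, and Neat1 is the scaffold of paraspeckles.

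Each of the small RNAs has a sequence that bears on how its count can be read, so the RNase MRP and RNase P subunits are shown first, from the GENCODE M21 transcripts of GRCm38. In Rmrp (chr4:43492783-43493063, minus strand, all 281 bases) the capitals mark the 124 bases whose reverse complement lies in transcripts of Ccdc107, a protein-coding gene on the opposite strand. In Rpph1 (chr14:50807449-50807767, minus strand, bases 1 to 300 of 319) they mark the 233 bases that are also part of transcripts of Ccnb1ip1, read in the same direction.
Rmrp: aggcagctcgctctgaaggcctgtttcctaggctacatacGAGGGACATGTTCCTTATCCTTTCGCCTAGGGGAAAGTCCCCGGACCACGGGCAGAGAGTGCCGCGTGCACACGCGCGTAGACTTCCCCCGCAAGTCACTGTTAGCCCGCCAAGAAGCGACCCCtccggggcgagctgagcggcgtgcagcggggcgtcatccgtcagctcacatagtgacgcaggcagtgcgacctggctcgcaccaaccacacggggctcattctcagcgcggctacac
Rpph1: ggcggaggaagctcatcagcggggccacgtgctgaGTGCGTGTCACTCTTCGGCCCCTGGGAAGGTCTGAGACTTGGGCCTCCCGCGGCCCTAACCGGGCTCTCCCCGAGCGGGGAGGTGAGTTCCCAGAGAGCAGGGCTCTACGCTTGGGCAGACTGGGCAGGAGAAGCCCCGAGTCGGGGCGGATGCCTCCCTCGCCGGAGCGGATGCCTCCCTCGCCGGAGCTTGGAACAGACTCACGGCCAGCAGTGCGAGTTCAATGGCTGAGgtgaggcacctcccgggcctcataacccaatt

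In stretches of 31 bases, the word length used to compare transcripts here, 94 of the 251 words of Rmrp (37.5%) recurred in Ccdc107 and 203 of the 289 words of Rpph1 (70.2%) in Ccnb1ip1. Both neighbours had far lower counts than the noncoding RNA. Ccdc107 averaged 2512 estimated counts in naive and 3216 in DMM libraries, and Ccnb1ip1 averaged 816.9 and 457.3. Whether the counting used strand is not given in the sources used here, so reads of Rmrp and Ccdc107 from the shared stretch cannot be told apart. Rmrp was also listed under a second identifier, a ribozyme transcript of 271 bases that begins at base 6 of the sequence above. It had at most 1.06 counts in a library, and the values given for Rmrp are the sum of both in shares and ratios and the longer transcript alone in fits.

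The other members with a sequence here shared a smaller part of it. No word of mt-Rnr1 (chromosome M, 70 to 1024) recurred in another gene, and 42 of 1552 words (2.7%) of mt-Rnr2 (chromosome M, 1094 to 2675) recurred in Gm20594, which averaged 28.6 and 21.12 counts. Malat1 (chromosome 19, 5795690 to 5802672, minus strand) shared 6.8% and Neat1 (chromosome 19, 5824708 to 5845478, minus strand) 2.2% of their words with other genes. For Malat1 these were 2254 genes, whose summed naive mean of 1041000 counts exceeded the 134200 of Malat1. For Neat1 they were 1349 genes, with 529100 counts against 6376. How many of those counts come from the shared words was not measured. ENSMUSG00000119584 has no entry in this annotation. The results table of the study pairs the identifier with the symbol Rn18s and the class rRNA, which would make it the RNA of the small cytosolic subunit, and it is called by its identifier below.

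Total estimated counts lay between 12479443 and 16548002 per library, which gives each share of a member a 95% Wilson interval no wider than 0.042 percentage points (counting error only). The labels call the cells chondrocytes, and the 10 chondrocyte markers were all detected in every library at 0.346% to 0.482% of counts in naive and 0.728% to 1.33% in DMM libraries. Markers of other cells were present too. The 10 neutrophil lineage markers summed to 0.887% to 1.24% in naive and 0.418% to 0.878% in DMM libraries, the 9 matched erythroid markers to 1.07% to 1.8% and 0.594% to 1.26%, and the 8 osteoblast and osteocyte markers to 0.121% to 0.182% and 0.294% to 0.54%. Of the 5 skeletal muscle markers, none reached 10 counts in every library. In bulk tissue, fewer cells of a type and less RNA per cell cannot be told apart.

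The 7 matched RNAs together took 24.7% ± 2.31 (SD, n = 4) of all counts in naive cartilage and 17.4% ± 2.12 (SD, n = 4) in DMM cartilage. The naive libraries held 21.6%, 26.7%, 24.4% and 26.3%, and the DMM libraries 18.8%, 18.4%, 14.3% and 18.3%, so the groups did not overlap. The difference lay in ENSMUSG00000119584, since the other 6 summed to 9.757% ± 1.184 in naive libraries and to 10.4% ± 0.629 (SD, n = 4 each) after DMM, with ranges that overlapped.

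Ranked by mean count over all libraries, ENSMUSG00000119584 (10.7% of all counts), mt-Rnr2 (5.10%) and mt-Rnr1 (2.61%) were the 3 highest rows, followed by Lars2, the mitochondrial leucyl-tRNA synthetase (2.10%). Malat1 was 6th (1.19%), Rpph1 10th (1.03%), Rmrp 33rd (0.140%) and Neat1 113th (0.0566%). Sequence shared with other genes was not looked for in Lars2. Col1a1 and Col1a2, the chains of type I collagen, were 5th and 9th of all rows. Tied at the 7th place were 2 identifiers without a symbol, ENSMUSG00000118841 and ENSMUSG00000118866, which held the same value in every library, between 0.824% and 1.36% of counts.

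Counts per length change this order, because a long transcript gives more fragments. As CPM (counts scaled to library size) per kilobase, Rpph1 reached 31980 ± 7251 in naive libraries, close to 31820 ± 4547 for mt-Rnr2 and 26490 ± 3341 for mt-Rnr1 (SD, n = 4). The spread of these 3 overlapped. Rmrp followed at 5193 ± 1367, then Malat1 at 1404 ± 392.7 and Neat1 at 22.4 ± 7.85 on the longest transcript of each. In DMM libraries the values were 31790 ± 1961 for Rpph1, 32270 ± 2067 for mt-Rnr2, 27750 ± 3373 for mt-Rnr1, 4912 ± 1919 for Rmrp, 1972 ± 86.6 for Malat1 and 31.6 ± 7.08 for Neat1. ENSMUSG00000119584 has no length in the reference used and is left out of this order.

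**Figure D1:**
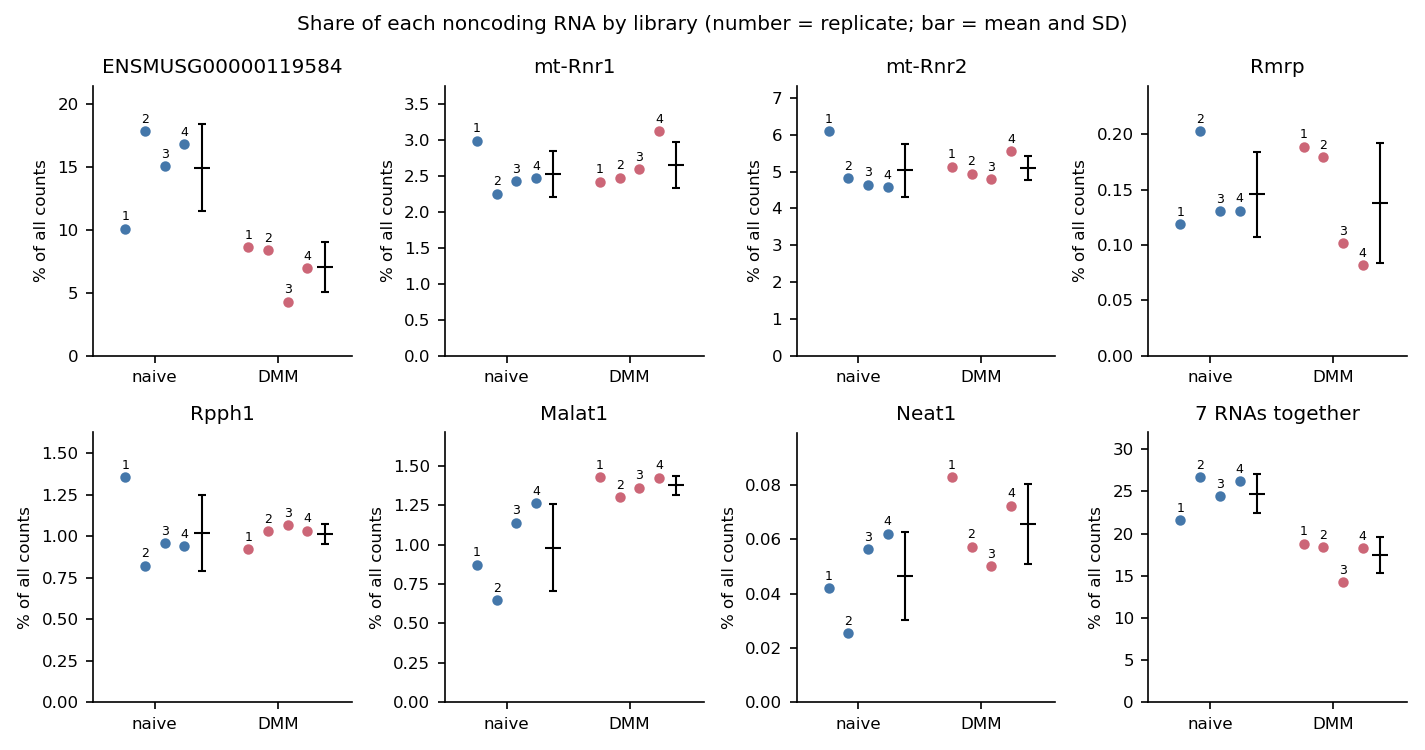
Share of all estimated counts (percent, linear axes from 0) taken by each of the 7 matched RNAs and by their sum, in each naive (blue) and DMM (red) library, with the replicate number above each point and the mean and SD (n = 4) as a black bar. The shares of ENSMUSG00000119584 and Malat1 do not overlap between groups, in opposite directions, while those of mt-Rnr1, mt-Rnr2, Rmrp, Rpph1 and Neat1 overlap. How many of all genes separate by share was not counted. In normalised counts 21.6% of the genes tested separate, and Malat1 does not.

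ENSMUSG00000119584 was lower in DMM cartilage. It took 10.1%, 17.9%, 15.1% and 16.8% of counts in naive libraries 1 to 4 and 8.65%, 8.40%, 4.31% and 6.97% in DMM libraries 1 to 4. Naive 1 was the lowest of the naive libraries and lay nearest to the DMM range, and DMM 3 was the lowest of all. After scaling by size factors (the median-of-ratios method of DESeq2, which gives what is called a normalised count here), it had 1442526, 3004497, 2168687 and 2423128 normalised counts in naive and 1163038, 1126611, 587184 and 913544 in DMM libraries. The fitted log2 fold change was -1.25 (SE 0.24, DESeq2 adjusted p = 5.88e-06), or 2.38-fold lower in DMM, with a 95% interval of -1.72 to -0.79. The row was lower in 4 of 4 DMM libraries than in any naive library.

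Genes counted as called when the adjusted p was at most 0.05 and the change at least 1.5-fold. By this rule ENSMUSG00000119584 was the only member called, 1 of 7. Over all 18422 genes tested, 13.2% were called, 7.47% higher and 5.7% lower in DMM, so 1 of 7 is near the background. Naive and DMM libraries were fully separated in normalised counts at 21.6% of the genes tested, and among the members at this row alone. Leaving out each library in turn kept the call 8 of 8 times, with log2 fold changes from -1.42 to -1.08. The methods of the study name a kit with rRNA depletion and the labels another kit, and how completely rRNA was removed from each library was not measured here, so what remained of the depletion and the level in the tissue cannot be told apart. The neutrophil and erythroid marker shares, given above, were also lower in DMM libraries and the chondrocyte and osteoblast shares higher, and their part in the result was not tested.

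The mitochondrial rRNAs offer a comparison within each library that does not depend on scaling. ENSMUSG00000119584 had 1.66, 3.71, 3.25 and 3.68 counts per count of mt-Rnr2 in naive libraries 1 to 4 and 1.69, 1.70, 0.899 and 1.26 in DMM libraries 1 to 4. Here naive 1 fell among the DMM libraries. The mean ratio was 3.07 ± 0.968 in naive and 1.39 ± 0.383 in DMM (SD, n = 4), a difference of -1.13 on the log2 scale that did not pass the test (exact permutation test, two-sided p = 0.0857, 0.285 adjusted over 5 ratios, where the smallest p the design allows is 0.0286). Without naive 1 the difference was -1.40, with an exact permutation p of 0.0286 that was not adjusted over the ratios. That library was singled out after its value was seen, and the groups separate because it is left out. This p therefore gives no support to a difference. With any other single library left out, the exact permutation p lay between 0.0857 and 0.114.

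mt-Rnr1 and mt-Rnr2, the RNAs of the small and the large subunit of the mitochondrial ribosome, showed no difference beyond the spread between mice. mt-Rnr2 took 6.10%, 4.82%, 4.64% and 4.57% of counts in naive and 5.13%, 4.95%, 4.79% and 5.55% in DMM libraries. mt-Rnr1 took 2.99%, 2.25%, 2.42% and 2.46% in naive and 2.42%, 2.47%, 2.59% and 3.12% in DMM libraries. The highest library was naive 1 for mt-Rnr2 and DMM 4 for mt-Rnr1, and these 2 libraries were the highest of their groups for both RNAs. In the fit, mt-Rnr2 changed by -0.14 (SE 0.12, 95% interval -0.36 to 0.09, DESeq2 adjusted p = 0.454) and mt-Rnr1 by -0.09 (SE 0.11, 95% interval -0.31 to 0.13, DESeq2 adjusted p = 0.659), so a change of 1.5-fold lies outside both intervals. Under scaling by the total count, both estimates were slightly above 0, at 0.02 and 0.07.

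The 2 mitochondrial rRNAs kept a narrow ratio to each other. mt-Rnr2 had 2.04, 2.14, 1.92 and 1.86 counts per count of mt-Rnr1 in naive libraries 1 to 4 and 2.125, 2.0, 1.85 and 1.78 in DMM libraries 1 to 4 (log2 difference -0.04, exact permutation test, two-sided p = 0.543). The ratio was 2.0 or more in replicates 1 and 2 and 1.92 or less in replicates 3 and 4 of both groups, and its spread within a group was larger than the difference between groups.

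The mitochondrial genome also encodes 13 mRNAs, all subunits of the respiratory chain and ATP synthase, and rRNA exceeded their summed counts in every library. The ratio of rRNA to mRNA was 9.98, 10.4, 9.25 and 8.99 in naive and 9.19, 9.10, 7.51 and 8.67 in DMM libraries. DMM 3 was the lowest, and the groups overlapped between 8.99 and 9.19. The log2 difference was -0.17 (SE 0.08), which did not pass the exact permutation test (two-sided p = 0.114, 0.285 adjusted over 5 ratios). None of the 13 mRNAs was called in either direction, with a median log2 fold change of 0.034 against -0.014 over all genes tested. mt-Co3, a subunit of cytochrome c oxidase named after its value was seen, changed by -0.46 (DESeq2 adjusted p = 0.000114), under the 1.5-fold threshold. mt-Co1, another subunit of that enzyme, changed by 0.03 (DESeq2 adjusted p = 0.904) and mt-Nd5, a subunit of complex I, by 0.11 (DESeq2 adjusted p = 0.478). The 21 tested nuclear genes for mitochondrial transcription and rRNA processing gave 0 calls too, with Lrpprc, which stabilises mitochondrial mRNA, at -0.22 (DESeq2 adjusted p = 0.127) and Mterf3, a factor of mitochondrial ribosome assembly, at 0.14 (DESeq2 adjusted p = 0.563).

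**Figure D2:**
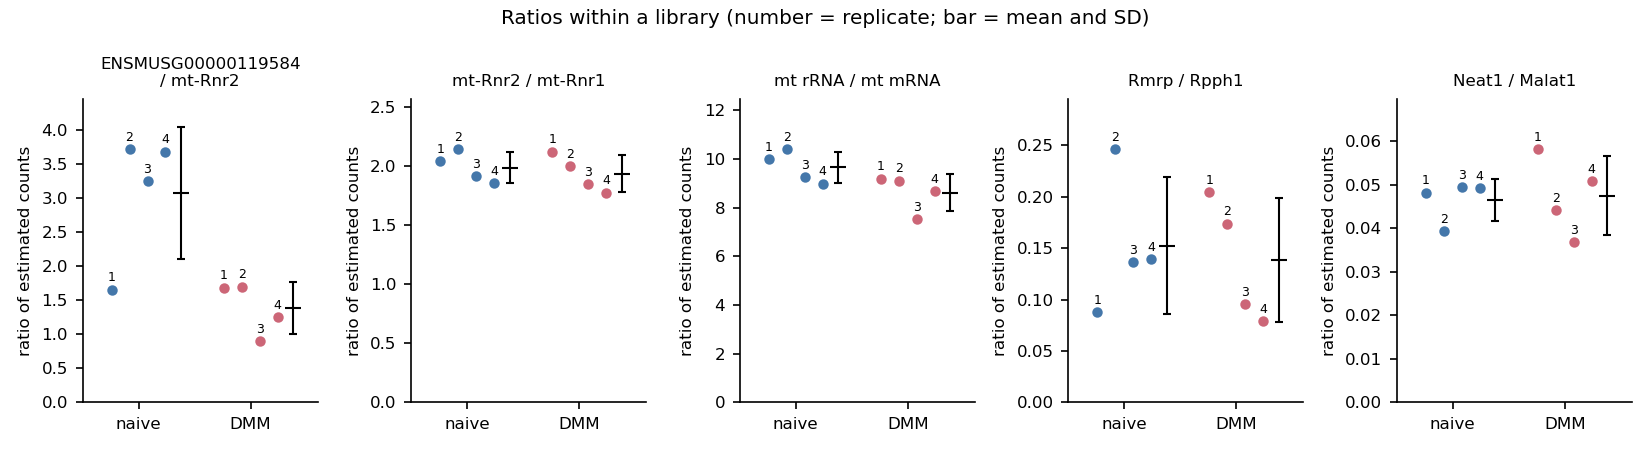
Ratios of estimated counts within each library (linear axes from 0) for naive (blue) and DMM (red) cartilage, with replicate numbers and the mean and SD (n = 4) as a black bar; mt rRNA is mt-Rnr1 plus mt-Rnr2 and mt mRNA the 13 mitochondrially encoded mRNAs. Naive 1, at 1.66, lies among the DMM libraries for ENSMUSG00000119584 over mt-Rnr2, and the groups overlap in all 5 ratios.

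The RNase P and RNase MRP subunits did not pass the test, and they varied in different ways. Rpph1 took 1.36%, 0.825%, 0.959% and 0.941% of counts in naive and 0.923%, 1.03%, 1.07% and 1.04% in DMM libraries. Its DMM values lay close together, with a coefficient of variation of 6.17%, while naive 1 raised that of the naive libraries to 22.7%. The fitted change was -0.16 (SE 0.13, 95% interval -0.42 to 0.11, DESeq2 adjusted p = 0.464).

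Rmrp was the most variable member in DMM cartilage, with a coefficient of variation of 39.1%. It took 0.119%, 0.203%, 0.131% and 0.131% of counts in naive and 0.189%, 0.179%, 0.102% and 0.0822% in DMM libraries. Naive 2 was the highest library, and DMM 1 and 2 lay above the other 3 naive libraries while DMM 3 and 4 lay below all of them. The fitted change of -0.26 had an SE of 0.37 and a 95% interval of -0.98 to 0.46 (DESeq2 adjusted p = 0.694), so a change of 1.5-fold lower was not excluded by the interval. Without naive 2 the estimate was 0.02. Per count of Rpph1, Rmrp had 0.0878, 0.246, 0.136 and 0.139 counts in naive and 0.205, 0.174, 0.0954 and 0.0794 in DMM libraries (log2 difference -0.15, SE 0.45, exact permutation test, two-sided p = 0.771).

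RNase P and RNase MRP share most of their proteins. Of 11 listed protein genes 10 were tested and 0 were called, with a median log2 fold change of -0.109. Pop5 and Pop4, the most abundant, averaged 169.5 ± 25.2 and 148.0 ± 26.6 normalised counts in naive and 155.1 ± 16.8 and 160.4 ± 26.2 in DMM libraries (SD, n = 4). They changed by -0.12 and 0.11 (DESeq2 adjusted p = 0.68 and 0.757). Pop1, a further subunit, changed by -0.57 (DESeq2 adjusted p = 0.0216), under the 1.5-fold threshold, and was called without naive 4 (-0.61), DMM 3 (-0.60) or DMM 4 (-0.66). Pop5 and Pop4 lay far below Rpph1, although counts of an mRNA and of a structural RNA say nothing of protein. Of the 22 genes of the RNA polymerase III machinery, 0 were called, with a median of -0.028. Polr3b, named after its value was seen, changed by -0.29 (DESeq2 adjusted p = 0.0405), under the 1.5-fold threshold. Bdp1, a subunit of the initiation factor TFIIIB, changed by -0.03 (DESeq2 adjusted p = 0.894), and Ssb, the La protein that binds the ends of polymerase III transcripts, by -0.30 (DESeq2 adjusted p = 0.115).

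Malat1 was higher in DMM cartilage by share but did not pass the test. It took 0.872%, 0.649%, 1.139% and 1.26% of all counts in naive and 1.43%, 1.30%, 1.36% and 1.42% in DMM libraries, without overlap. The DMM libraries were close together (coefficient of variation 4.39%) and the naive libraries spread widely (28.0%), with naive 1 and 2 low. Part of the separation rests on the total it is divided by, and how many of all genes separate by share was not counted. With ENSMUSG00000119584 left out of the total, naive libraries reached up to 1.52% and DMM libraries began at 1.42%. The normalised counts were 124521, 109046, 163755 and 181708 in naive and 191613, 174200, 185402 and 186726 in DMM libraries, so naive 4 overlapped with DMM 2. The fitted change was 0.35 (SE 0.16, 95% interval 0.04 to 0.66, DESeq2 adjusted p = 0.0952), so a change of 1.5-fold higher was not excluded by the interval. Under total count scaling it was 0.49 (DESeq2 adjusted p = 0.0351), under the 1.5-fold threshold.

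Neat1, which lies next to Malat1 on chromosome 19, had a similar estimate with a wider error. It took 0.0421%, 0.0256%, 0.0563% and 0.0621% of counts in naive and 0.0828%, 0.0573%, 0.0502% and 0.0724% in DMM libraries. Naive 2 was the lowest and DMM 1 the highest, and the groups overlapped. The fitted change was 0.36 (SE 0.22, 95% interval -0.07 to 0.80, DESeq2 adjusted p = 0.258), so a change of 1.5-fold higher was not excluded by the interval. Per count of Malat1, Neat1 had 0.0482, 0.0394, 0.0494 and 0.0492 counts in naive and 0.0581, 0.0442, 0.0369 and 0.0508 in DMM libraries (log2 difference 0.01, SE 0.16, exact permutation test, two-sided p = 0.943).

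Proteins of the paraspeckle, which assembles on Neat1, gave 0 calls among 12 genes tested. Their median log2 fold change was -0.187, against -0.014 over all genes tested. Hnrnpk and Sfpq, which bind RNA and are needed for paraspeckles, averaged 6411 ± 457.1 and 4485 ± 246.9 normalised counts in naive and 5502 ± 612.4 and 4154 ± 234.1 in DMM libraries (SD, n = 4). They changed by -0.22 (DESeq2 adjusted p = 0.145) and -0.11 (DESeq2 adjusted p = 0.404). Over all 18422 genes tested, 3974 passed the adjusted p, and 2426 of them also the 1.5-fold threshold. Of the 12, 2 passed the adjusted p but not the 1.5-fold threshold, both lower. These were Pspc1 (-0.30, DESeq2 adjusted p = 0.0101) and Ewsr1 (-0.25, DESeq2 adjusted p = 0.00758), named after their values were seen. The 8 genes of the 7SK particle and of P-TEFb, the elongation factor it holds inactive, gave 0 calls and a median of -0.035, with the cyclin Ccnt2 at 0.10 (DESeq2 adjusted p = 0.616). Larp7, also of this list and named after its value was seen, changed by -0.37 (DESeq2 adjusted p = 0.0189), under the 1.5-fold threshold.

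**Figure D3:**
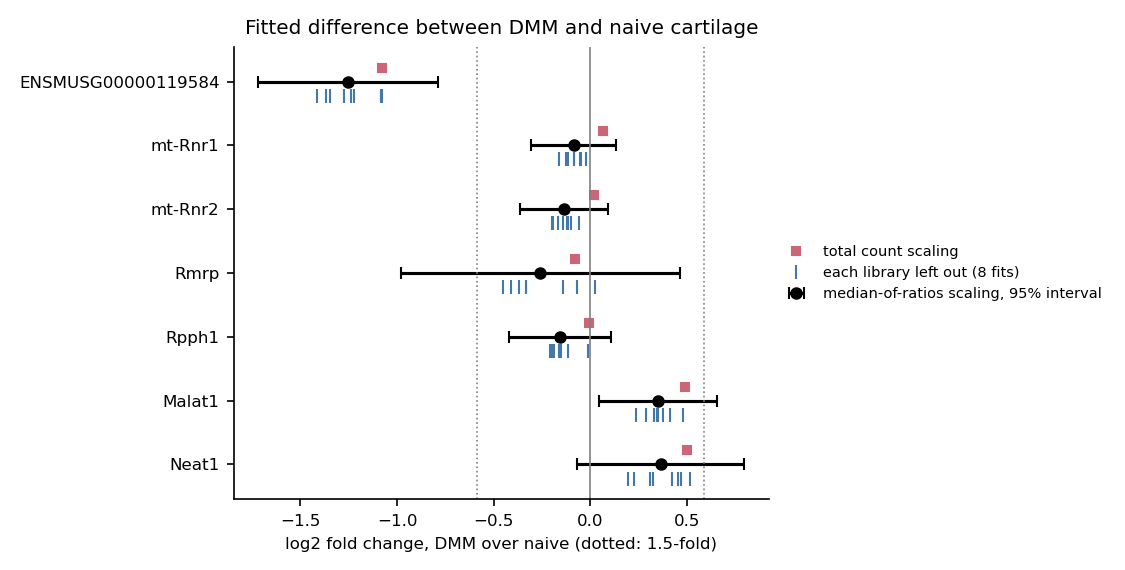
Fitted log2 fold change (DMM over naive) of each matched RNA under median-of-ratios scaling (black, with its 95% interval), under total count scaling (red squares) and in the 8 fits that each left out 1 library (blue ticks), with dotted lines at 1.5-fold. ENSMUSG00000119584, at -1.25, lies beyond the lower line in all of them, and the estimates of the other 6 lie between the lines. The 95% intervals of Rmrp (down to -0.98), Malat1 (up to 0.66) and Neat1 (up to 0.80) reach past a line.

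Genes that make and trim cytosolic rRNA were set beside ENSMUSG00000119584. Of 13 tested genes of the RNA polymerase I machinery 0 were called, with a median of -0.177. Taf1d, a subunit of the promoter selectivity factor SL1, had 3192, 3831, 3263 and 3104 normalised counts in naive and 2659, 2564, 2426 and 2167 in DMM libraries, without overlap. Its change of -0.45 on the log2 scale (SE 0.11, DESeq2 adjusted p = 0.0007) is under the 1.5-fold threshold. The groups did not overlap at 21.6% of all genes tested. Ubtf, the upstream binding factor of polymerase I, changed by -0.20 (DESeq2 adjusted p = 0.131).

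Of 24 factors of small subunit processing and the nucleolus, 1 was called, lower in DMM, and 22 lay below 0, with a median of -0.187. Over all genes tested, 5.7% were called lower. The called gene was Nop56, a core protein of the C/D class of snoRNA particles. It had 3394, 3665, 4266 and 4227 normalised counts in naive and 2102, 2009, 1989 and 1968 in DMM libraries. The naive libraries were all well above the DMM libraries, which differed little among themselves. The fall was 0.95 on the log2 scale (SE 0.10, DESeq2 adjusted p = 1.25e-16). Another 5 of the 24 passed the adjusted p but not the 1.5-fold threshold, all lower, among them Nop58, the partner of Nop56 in the same particles (-0.52, DESeq2 adjusted p = 0.000411), Npm1, nucleophosmin (-0.51, DESeq2 adjusted p = 0.00302), and Ncl, nucleolin (-0.48, DESeq2 adjusted p = 0.000921). Npm1 was called without DMM 3 (-0.61). Over the 10 lists, 14 of 158 genes passed the adjusted p but not the fold threshold, 13 of them lower in DMM. Over all 18422 genes tested, 3974 passed the adjusted p (1966 lower). Of these, 2426 also passed the fold threshold (1050 lower), so genes that passed the adjusted p alone were common. Of the 14, those named here other than Taf1d were named after their values were seen.

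Of 35 other structural RNAs listed, 18 matched a row and 7 were tested. Of all genes tested, 5.7% were called lower in DMM and 7.47% higher, and of these 7 RNAs 2 fell and 0 rose. Both are snoRNAs that act on the precursor of the small subunit rRNA, and their sequences are shown because each carries the mark of a different snoRNA class. In Rnu3a, the U3 RNA (chr10:40258467-40258679, plus strand, all 213 bases), the capitals mark TGATGA, a form of the C box that gives the C/D class its name. In Snora73a (chr4:132352775-132352979, minus strand, all 205 bases), they mark the ACA that lies 3 bases before the end in the H/ACA class. On the transcript strand, TGATGA occurred in 26.1% of the 1507 annotated snoRNA transcripts, and ACA at that place in 18.3%, and a match is a description only.
Rnu3a: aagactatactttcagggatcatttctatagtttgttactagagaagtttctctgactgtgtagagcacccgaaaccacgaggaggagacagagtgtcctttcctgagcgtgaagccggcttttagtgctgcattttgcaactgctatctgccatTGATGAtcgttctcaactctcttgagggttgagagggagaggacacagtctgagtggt
Snora73a: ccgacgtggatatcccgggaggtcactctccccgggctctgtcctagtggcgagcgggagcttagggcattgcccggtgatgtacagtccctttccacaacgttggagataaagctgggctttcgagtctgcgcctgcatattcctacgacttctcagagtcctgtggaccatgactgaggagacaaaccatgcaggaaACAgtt

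Rnu3a had 4132, 6617, 4529 and 4493 normalised counts in naive and 3759, 3682, 2438 and 1930 in DMM libraries. Naive 2 was the highest and DMM 4 the lowest, and the groups did not overlap, as at 21.6% of all genes tested. The log2 fold change was -0.74 (SE 0.22, DESeq2 adjusted p = 0.00654). Without naive 2 it was -0.57 and without DMM 4 it was -0.58, both under the 1.5-fold threshold. Total count scaling gave -0.57, also under it. All 183 words of Rnu3a also occur in a second annotated copy of the gene that has no matched row here.

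Snora73a had 206.7, 333.9, 242.9 and 193.9 normalised counts in naive and 183.3, 168.8, 89.7 and 116.4 in DMM libraries, again without overlap and with naive 2 highest. The log2 fold change was -0.81 (SE 0.25, DESeq2 adjusted p = 0.0104). Without naive 2 it was -0.62 (DESeq2 adjusted p = 0.0759), and the call was lost. Its count is uncertain, because 153 of its 175 words recur on the opposite strand in Gm17300, which averaged 2932 estimated counts in naive and 3143 in DMM libraries, and 129 recur in its host gene Snhg3.

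Among 28 other long noncoding RNAs tested, 5 fell and 1 rose in DMM, with a median of -0.002. Over all genes tested, 5.7% were called lower and 7.47% higher, and 21.6% did not overlap between the groups. The 5 that fell were Gas5, Zfas1, Snhg8, Snhg11 and Snhg12, all of which carry snoRNAs in their introns. Other snoRNA host genes of the list were not called. Snhg1 changed by -0.43 (DESeq2 adjusted p = 0.0634), Snhg5 by -0.22 (DESeq2 adjusted p = 0.619) and Snhg6 by 0.03 (DESeq2 adjusted p = 0.958). Snhg20 changed by 0.17 (DESeq2 adjusted p = 0.738) and Snhg3, the host of Snora73a, by 0.62 (DESeq2 adjusted p = 0.571). Snhg3 averaged only 12.7 normalised counts, so its change is poorly measured. These host genes that were not called were named after their values were seen. Gas5 had 7296, 9245, 10580 and 10820 normalised counts in naive and 4935, 4655, 4947 and 4970 in DMM libraries. All naive libraries lay above all DMM libraries, and the latter were nearly alike. The log2 fold change was -0.96 (SE 0.13, DESeq2 adjusted p = 1.03e-10). Zfas1 changed by -0.84 (SE 0.16, DESeq2 adjusted p = 1.42e-05) and Snhg8 by -0.93 (SE 0.22, DESeq2 adjusted p = 0.000567), each without overlap. Zfas1 and Airn, described below, are antisense RNAs, so their counts are uncertain where strand was not used.

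The remaining 3 calls were less stable. Snhg11 changed by -0.62 (DESeq2 adjusted p = 0.0149), overlapped between the groups and kept its call 5 of 8 times when a library was left out, with adjusted p of 0.0843, 0.0547 and 0.0599 without naive 3, DMM 2 and DMM 3. Under total count scaling it was -0.47 (DESeq2 adjusted p = 0.106), and the call was lost. Snhg12, at -0.59 (DESeq2 adjusted p = 0.0217), kept its call 4 of 8 times and lost the call without naive 2, naive 4, DMM 3 or DMM 4. It also lost it in 5 of 10 other settings, including edgeR (adjusted p = 0.0699), limma-voom (adjusted p = 0.0619) and total count scaling (DESeq2 adjusted p = 0.0889). The RNA that rose, Airn, which is antisense to Igf2r, changed by 0.62 (DESeq2 adjusted p = 0.0351) and kept its call 2 of 8 times, without naive 4 or DMM 3. It lost the call in 3 of 10 other settings, including edgeR (adjusted p = 0.0721). Snhg12 and Airn were named after their values were seen.

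**Figure D4:**
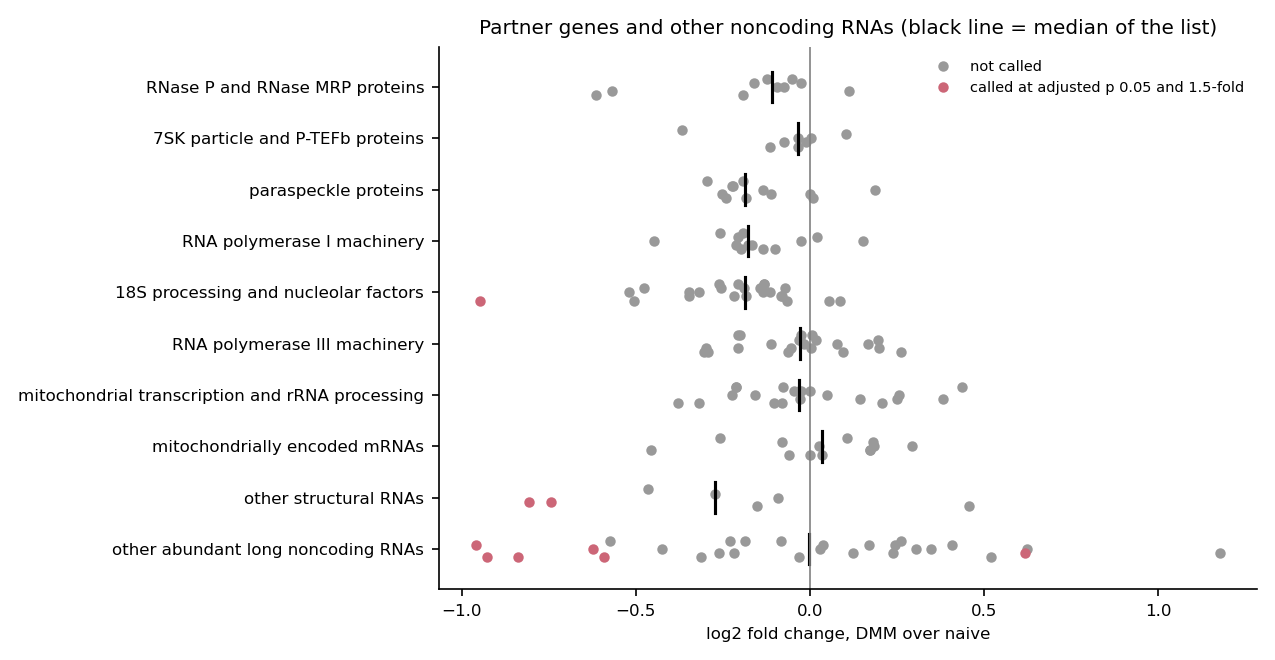
Log2 fold change (DMM over naive) of every tested gene in 10 lists of partner proteins and other noncoding RNAs, with called genes in red, genes not called in grey and the median of each list as a black line. The 9 called genes, of 158 tested, are Nop56, 2 snoRNAs and 6 long noncoding RNAs, and 8 of them lie below 0. Over all genes tested, 13.2% were called, 5.7% lower in DMM.

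As a last description, the genes whose normalised counts followed each member most closely over the 8 libraries were taken from the 11038 genes that averaged 100 or more normalised counts. These Pearson correlations share the libraries and their groups and are given without a test. Dancr, a long noncoding RNA, followed ENSMUSG00000119584 most closely (r = 0.98), with 618.2, 874.0, 699.9 and 755.1 normalised counts in naive and 544.9, 530.0, 388.6 and 412.5 in DMM libraries. The next were Zfp101 (r = 0.961) and BC018473 (r = 0.956). Malat1 was followed by Scrn1 (r = 0.996), which had 79.2, 66.5, 115.6 and 131.5 normalised counts in naive and 146.0, 123.6, 146.5 and 142.6 in DMM libraries, and by Exoc6b (r = 0.986) and Hecw2 (r = 0.981).

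Rmrp was followed by Tbrg4 (r = 0.99), a mitochondrial RNA-binding protein that had 302.5, 457.6, 312.5 and 308.4 normalised counts in naive and 367.4, 363.3, 277.4 and 216.6 in DMM libraries. Fbxw5 (r = 0.979) and Gm17300 (r = 0.976) came next, and Gm17300 is the gene that shares sequence with Snora73a on the opposite strand. The highest values for Rpph1 were those of Ilkap (r = 0.969), Hbs1l (r = 0.956) and Aatf (r = 0.951), for mt-Rnr1 those of Zfp871 (r = 0.965), Zfp207 (r = 0.96) and Mfsd14a (r = 0.959), for mt-Rnr2 those of Chuk (r = 0.973), Ppp4r3a (r = 0.973) and Uspl1 (r = 0.968), and for Neat1 those of Glrx2 (r = 0.972) and Gm48740 (r = 0.958). None of the genes named here appeared for more than 1 member.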

How the data were processed

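Medial knee cartilage of 8 mice was sequenced, 4 naive and 4 DMM by their labels, 1 library per mouse. The authors deposited estimated counts, made by read trimming, pseudo-alignment with Kallisto and summing to genes with Tximport, and 37.8% to 40.2% of the values in a library are not whole. The methods name GRCm38 and the submitters' processing notes a human build, and the kit differs between labels and methods, so both are uncertain. Symbols were found for 48855 of 50462 identifiers. Rounded counts were tested with DESeq2 version 1.42.0 (R version 4.3.3, Wald test, no covariates), as the methods do, and alternatively with edgeR version 4.0.16 and limma version 3.58.1. The p of genes were adjusted by Benjamini-Hochberg over every gene tested. The p of ratios are not adjusted unless an adjustment over the 5 ratios is named. Ratios used unrounded counts and an exact permutation test over 70 assignments. The unblocked fits of DESeq2, edgeR and limma and the permutation test were also run on simulated data. The replicate block and the sign-flip test were not. The members and the gene lists were chosen with earlier results of these data known. Named genes are all members, up to 4 called genes per list by adjusted p (otherwise the 2 most abundant) and the 3 most correlated genes per member, of which 2 in all are not reported here.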

Additional observations from a re-analysis of the deposited data

Results flagged for a closer look

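Of 58 groups of 4 values tested (shares with and without ENSMUSG00000119584, normalised counts and ratios), 12 held a library far from the other 3 by Dixon's test, where chance gives about 2.9. Many of these measures overlap, so the 12 are not independent, and no explanation was tested. The combined share of mt-Rnr1 and mt-Rnr2 was 9.09% in naive 1 (others of the group 7.034% to 7.07%) and 8.67% in DMM 4 (others 7.383% to 7.549%), and without ENSMUSG00000119584 in the total it was 10.1% in naive 1 (8.318% to 8.61%). mt-Rnr2 alone took 6.10% in naive 1 (4.572% to 4.821%), and mt-Rnr1 took 3.36% of the counts without ENSMUSG00000119584 in DMM 4 (2.645% to 2.706%). The 6 members other than ENSMUSG00000119584 summed to 11.3% in DMM 4 (9.963% to 10.17%), and all 7 to 14.3% in DMM 3 (18.25% to 18.82%).

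Rpph1 had 193500 normalised counts in naive 1, against 135600 to 138500 in naive 2 to 4, and 1.01% of the counts without ENSMUSG00000119584 in DMM 1, compared with 1.113% to 1.125%. Rmrp took 0.203% in naive 2 (0.119% to 0.131% in the others), or 34090 normalised counts (16980 to 18870). The ratio of Neat1 to Malat1 was 0.0394 in naive 2 and lay between 0.04821 and 0.04943 in naive 1, 3 and 4.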

How the results depend on the processing

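The number of called genes was 2426, between 1851 and 2847 in the fits that left out 1 library, between 2082 and 2521 under other tools, scalings and filters, and 3974 without a fold threshold. Scaling by the total count moved the median log2 fold change (genes averaging 10 or more) from -0.014 to 0.138 and the share of calls that were higher from 56.7% to 80.7%. ENSMUSG00000119584 was called in 9 of 10 other settings (log2 fold change -1.26 to -1.08), with an adjusted p of 0.0453 under edgeR and 0.0133 under limma-voom. Of 126 values for the members, 122 kept their direction and side of the threshold. mt-Rnr1 (0.0667) and mt-Rnr2 (0.0203) turned positive under total count scaling and Rmrp without naive 2 (-0.452 to 0.0245 without single libraries). The cause was not tested. Depth does not limit these RNAs, but 4 mice per group do.

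The groups carry the same replicate numbers. Across genes, libraries with the same number showed little shared deviation (correlations of 0.05, 0.058, -0.119 and 0.117). Of 8 libraries, 3 correlated best with their own number. The ratio of mt-Rnr2 to mt-Rnr1, given above, was nevertheless higher in the lower replicate numbers of both groups. With the replicate block 2076 genes and 0 members were called, since ENSMUSG00000119584 had a log2 fold change of -1.26 and an adjusted p of 0.0829. The blocked sign-flip test of its ratio to mt-Rnr2 gave an exact p of 0.25. With so few pairs of libraries, the sign-flip test cannot reach 0.05 whatever the values. No conclusion is drawn from it.

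The ratio of ENSMUSG00000119584 to mt-Rnr2 ranged from -1.4007 to -0.9347 (log2 difference) without single libraries. Near 0, ratios changed sign without single libraries, with ranges of -0.0842 to 0.0014 for mt-Rnr2 to mt-Rnr1, -0.3837 to 0.112 for Rmrp to Rpph1 and -0.0891 to 0.1296 for Neat1 to Malat1, and the ratio of Rn7sk to Rpph1 was not run. Among partner genes and other noncoding RNAs, 576 of 630 values kept direction and side, and 26 lost calls fell on Rnu3a, Snora73a, Snhg11, Snhg12 and Airn. Signs turned near 0 for Pop5 (0.0352), Sfpq (0.0447) and Bdp1 (0.128) under total count scaling, for Bdp1 under TMM (0.0014), and without single libraries for Pop4 (-0.0044 to 0.202), Bdp1 (-0.054 to 0.011) and mt-Co1 (-0.0139 to 0.087).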
